A study of Bos taurus with 18 samples.

Results

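De novo lipogenesis is the making of fatty acids from acetyl-CoA. The 10 genes described here were taken by name as its enzymes and main regulators, and each probe set that the platform annotation gave exactly 1 of these symbols was used. They are 10 of 18010 genes with such a probe set, and they had 11 probe sets, since SCD had 2. The values come from liver biopsies of 18 multiparous Holstein cows, taken 1 week after calving and hybridised to Affymetrix Bovine Gene 1.0 ST arrays, 1 array per cow. The 9 control cows were fed total mixed rations based on corn and grass silage. The 9 niacin cows received in addition a rumen-protected niacin product (NiaShure), begun 3 weeks ahead of the calving date and dosed at 79 mg per kg of body weight. By the labels this dose delivers 47 mg to the duodenum, of which 31 mg can be absorbed, again for each kg of body weight. The ages of the cows are not given in the sources used here.

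In the pathway, acetyl-CoA comes from acetate or from citrate, is carboxylated to malonyl-CoA, and is joined by fatty acid synthase into palmitate, which is then elongated and desaturated. In rodents insulin drives it through the transcription factor SREBP-1 and glucose through ChREBP. In ruminants acetate from rumen fermentation is the main carbon source, and adipose tissue and the lactating udder, more than the liver, make fatty acids. Early lactation is a time of low insulin and of fat release from adipose tissue. The comparison asks whether niacin altered these liver transcripts at that time.

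All values are RMA expression on the log2 scale, so that a difference of 1 is a doubling. RMA quantile normalization would hide a shift shared by most genes, and levels of different probe sets are not set against each other because probes differ in their response. Liver identity was clear, with the albumin gene ALB at a mean of 13.4 over the 18 arrays. Of 10 adipocyte markers, ADIPOQ (3.76 to 4.59), LEP (3.58 to 4.51) and FABP4 (2.16 to 3.51) had means under 4.35, the level below which probe sets were left out of the tests. The other 7 had means from 5.17 (LPL) to 8.73 (PNPLA2), among them PLIN1 at 5.40. In these tissue samples a change in the number of cells of a type and a change of RNA per cell cannot be told apart. Any pair of arrays correlated at 0.972 to 0.990 (Pearson's r across probe sets).

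The enzymes that supply acetyl-CoA varied widely between cows. ACSS2 (probe set 12714225), the cytosolic enzyme that activates acetate, ran in control cows from 6.40 to 8.68 with a median of 7.59, and in niacin cows from 6.33 to 9.01 with a median of 7.85. Between the lowest cow (niacin 8) and the highest (niacin 3) this is a 6.41-fold range, the widest of the 10 genes. ACLY (12769528), which splits cytosolic citrate, ran from 6.63 to 8.01 in control cows (median 6.95) and from 6.66 to 8.27 in niacin cows (median 6.97). Control 20 stood highest among the controls for ACSS2 and ACLY, and niacin 3 highest among the niacin cows.

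The 2 acetyl-CoA carboxylases differed in whether they could be measured. ACACA (12767240), the cytosolic form that makes malonyl-CoA for synthesis, lay between 6.50 and 7.38 in control cows (median 6.81) and between 6.43 and 7.91 in niacin cows (median 6.84). Its SD was 0.27 in control and 0.53 in niacin cows, where niacin 3 and niacin 19 stood above the rest. ACACB (12746671), the form whose malonyl-CoA restrains fatty acid entry into mitochondria, had a mean under the filter level and was not among the tested probe sets. It lay between 3.78 and 4.31 in control cows (median 4.08) and between 3.90 and 4.34 in niacin cows (median 4.11). The groups overlapped, and 25.6% of tested probe sets had a smaller within-group SD.

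FASN (12760706), which encodes fatty acid synthase, ran from 5.79 (control 23) to 7.76 (control 20) among controls, with a median of 6.57. In niacin cows it ran from 5.87 (niacin 40) to 7.95 (niacin 19), with a median of 6.41. The groups overlapped almost fully, and the 18 cows spanned a 4.47-fold range. THRSP (12833855), also called Spot 14, is a protein of lipogenic tissues that was found in rat liver as a thyroid hormone response. It ran from 3.99 to 6.50 in control cows (median 5.26) and from 4.08 to 5.97 in niacin cows (median 4.99), and its lowest cows lay under the filter level.

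Downstream of the synthase, ELOVL6 (12871633), which elongates palmitate to stearate, lay between 6.42 (control 12) and 8.31 (control 20) in control cows, with a median of 7.68. In niacin cows it lay between 7.45 and 8.60 with a median of 7.63, and niacin 3 at the top was followed by niacin 19 at 7.89. SCD, the desaturase that turns stearate into oleate, had 2 probe sets whose values over the 18 cows correlated at r = 0.96 after group means were removed. The brighter one (12821369) ran from 8.41 to 10.79 in control cows (median 9.87) and from 8.88 to 10.73 in niacin cows (median 9.95). The other (12818863) ran from 6.92 to 9.20 and from 7.59 to 9.00, with medians of 7.96 and 8.24. The brighter probe set was used for SCD below, a choice made for any gene with several probe sets.

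The regulators spread less than most of the enzymes. SREBF1 (12764980), the gene of SREBP-1, whose isoforms were not told apart, ran from 6.56 (control 23) to 7.79 (control 20) in control cows, with a median of 7.24. In niacin cows it stayed between 7.16 and 7.86, with a median of 7.38. MLXIPL (12814618), the gene of the glucose-responsive factor ChREBP, lay between 7.61 and 8.44 in control cows (median 7.90) and between 7.23 and 8.34 in niacin cows (median 7.70). The within-group SD over all cows was 0.29 for SREBF1 and 0.34 for MLXIPL, against 0.68 for FASN, 0.73 for THRSP, 0.83 for SCD and 0.87 for ACSS2.

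**Figure D1:**
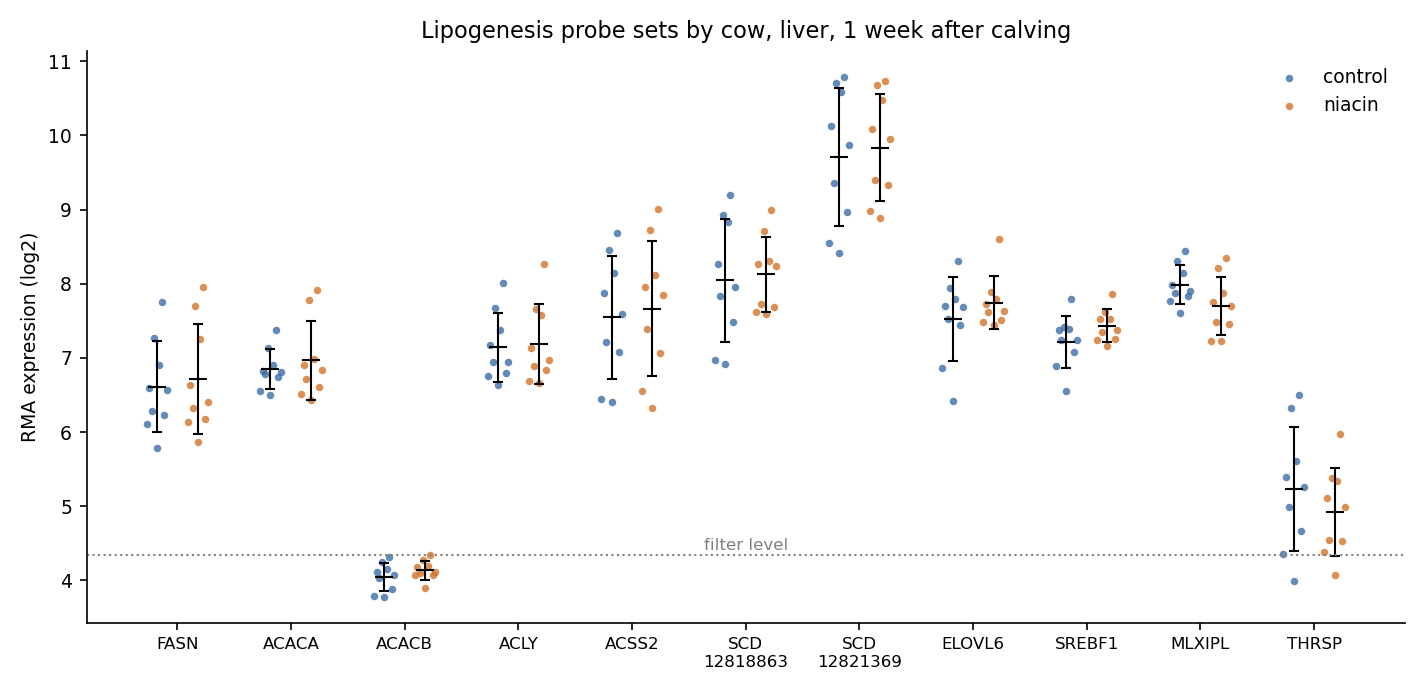
RMA expression (log2, y axis) of the 11 probe sets in each of the 18 cows, control in blue and niacin in orange, with group means and SD (n = 9 each) in black and the filter level of 4.35 dotted. The 2 groups overlap for every probe set, ACACB lies under the filter level, and ACSS2, SCD, THRSP and FASN have the widest spread between cows.

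Set among all 18250 tested probe sets, whose median within-group SD was 0.20, THRSP and the tested enzymes, which leaves out the dim ACACB, had larger within-group SDs than most. For ACSS2 99.6% of tested probe sets had a smaller SD, for SCD 99.5%, for THRSP 99.2% and for FASN 99.0%. ACLY (97.2%), ELOVL6 (96.4%) and ACACA (95.1%) followed, then MLXIPL (89.8%) and SREBF1 (83.8%). This is a description, since the response of probes to RNA amount differs between genes.

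Niacin minus control was fitted with limma over all tested probe sets, and 0 of the 9 tested genes passed an adjusted p of 0.05. The adjusted p of the 9 genes lay between 0.663 and 0.979. None of the 18250 probe sets passed, so the share called was 0%. At an unadjusted p under 0.05 limma called 0 of the 9 genes, against 7.74% of all tested probe sets. The exact two-sided permutation test over all 48620 splits also called 0 of the 9 at an unadjusted p under 0.05, against 7.53% of all probe sets, and 0 after adjustment. Of the 9 genes, 7 had values above 0 and 2 below, with a median of 0.12 against 0.01 over all probe sets.

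The intervals were wide for the most variable genes. FASN had a mean of 6.61 ± 0.61 in control and 6.72 ± 0.74 in niacin cows (SD, n = 9 each), a difference of 0.10 ± 0.28 (SE) that in fold terms lies between 0.715 and 1.61 (95% interval). ACSS2 differed by 0.12 ± 0.36, from 0.648-fold to 1.82-fold, so a change of over 1.5-fold in either direction is within its interval. SCD differed by 0.13 ± 0.34 on the brighter and 0.08 ± 0.29 on the other probe set, ACACA by 0.12 ± 0.18 and ACLY by 0.04 ± 0.21. THRSP was at 5.23 ± 0.84 in control and 4.93 ± 0.59 in niacin cows, a difference of -0.31 ± 0.30.

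The signs of FASN, ACLY, ACSS2, ACACA and SCD rested on single cows. FASN turned below 0 without control 23, niacin 3 or niacin 19, and reached -0.05. ACLY did so without control 23, control 36, niacin 3, niacin 19 or niacin 33, reaching -0.09. Leaving out control 12, control 23, niacin 3 or niacin 19 turned ACSS2 (to -0.05 at most), and niacin 3 alone turned ACACA (to -0.0014). SCD turned without control 12 or control 23, reaching -0.03, and on the other probe set also without niacin 3, reaching -0.06.

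For the remaining 4 tested genes the sign did not depend on any 1 cow, but the 95% intervals included 0. MLXIPL came nearest to the threshold, with 7 of 9 niacin cows below the control median. Its mean was 7.98 ± 0.26 in control and 7.70 ± 0.40 in niacin cows, a difference of -0.28 ± 0.14 (SE; limma adjusted p = 0.663, exact permutation p = 0.0929). SREBF1 was on the other side, at 7.22 ± 0.35 in control and 7.44 ± 0.22 in niacin cows, with 7 of 9 niacin cows above the control median and a difference of 0.22 ± 0.13 (limma adjusted p = 0.718, exact permutation p = 0.142). ELOVL6 differed by 0.23 ± 0.20. On leaving out 1 cow the differences were -0.36 to -0.23 for MLXIPL, 0.13 to 0.29 for SREBF1, 0.09 to 0.33 for ELOVL6 and -0.46 to -0.15 for THRSP.

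**Figure D2:**
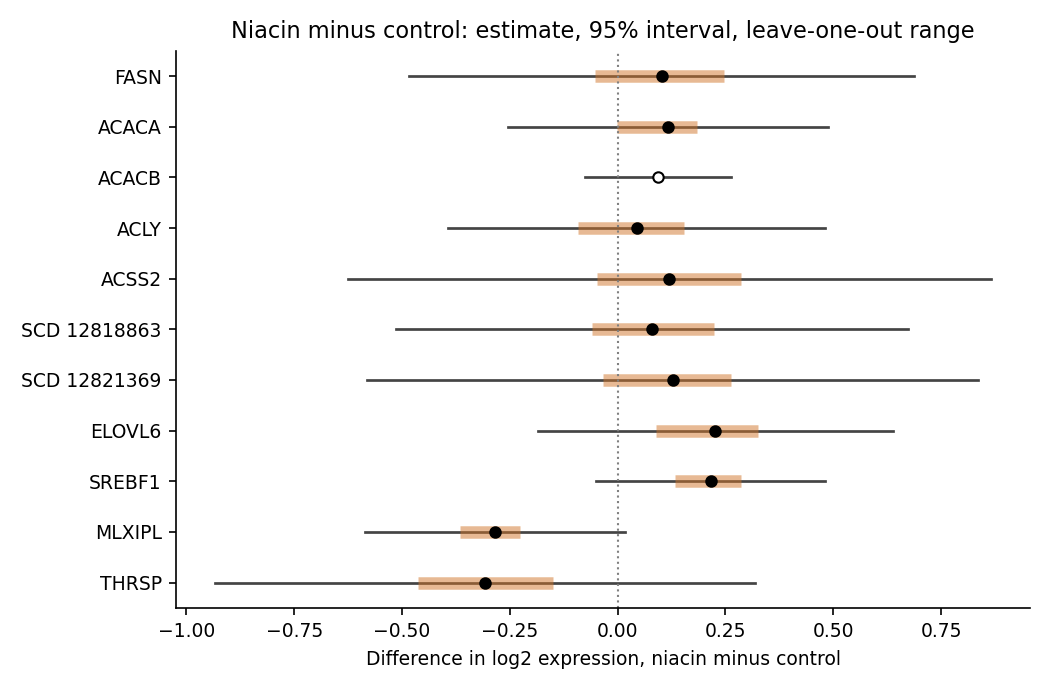
Difference in log2 expression, niacin minus control (x axis), for each probe set, with the limma estimate (point), its 95% interval (line) and the range on leaving out 1 cow in turn (orange bar); the open point is ACACB, fitted without the filter. Every interval includes 0. The bars of FASN, ACACA, ACLY, ACSS2 and SCD cross 0, and those of MLXIPL and THRSP lie wholly below 0.

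Across cows the levels of the enzymes were correlated. After group means were removed, Pearson's r was computed over 18 cows for all 45 pairs of the 10 genes, and 18 pairs passed an adjusted p of 0.05 in a permutation test within groups (100000 resamples, two-sided, adjusted over the 45 pairs). All 18 were positive, and they joined 7 genes, namely FASN, ACACA, ACLY, ACSS2, SCD, ELOVL6 and THRSP. None of the pairs with SREBF1, MLXIPL or ACACB passed. Among the 18 pairs r lay between 0.54 and 0.87, and Spearman's rho between 0.46 and 0.91.

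ACSS2 and THRSP were the closest pair, with r = 0.87 and rho = 0.91 (n = 18, permutation p = 1e-05 for each, the smallest that 100000 resamples can give; adjusted p = 0.00045). Within groups r was 0.89 in control and 0.90 in niacin cows, and without the 2 cows farthest from the median of ACSS2 (control 12 and niacin 8) it was 0.86. FASN and ACLY had r = 0.86 and rho = 0.67 (permutation p = 7e-05 and 0.0039; adjusted p = 0.00079 and 0.0146), with 0.90 in control and 0.82 in niacin cows, and 0.83 without control 20 and niacin 19, the farthest from the median of FASN. FASN and ACSS2 had r = 0.85 and rho = 0.82 (permutation p = 6e-05 and 0.00017; adjusted p = 0.00079 and 0.0029), with 0.94 and 0.79 within groups and 0.82 without the same 2 cows. ACACA followed ACLY at r = 0.85 and FASN at 0.80, and THRSP followed ELOVL6 at 0.80 and FASN at 0.80.

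SCD was tied to ACSS2 (r = 0.76), FASN (0.67) and THRSP (0.64), but not past the threshold to ACACA (r = 0.36, permutation adjusted p = 0.229), ACLY (0.46, 0.116) or ELOVL6 (0.52, 0.0869). With the other SCD probe set 19 pairs passed in place of 18. SREBF1 had r between -0.23 and 0.52 with the other 9 genes. Its pairs with ACSS2 (0.50, permutation adjusted p = 0.0817), SCD (0.52, 0.0874) and THRSP (0.52, 0.0874) came nearest to the threshold. MLXIPL had r between -0.23 and 0.24 with the other 9 genes, and ACACB, a dim probe set, between -0.09 and 0.38.

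**Figure D3:**
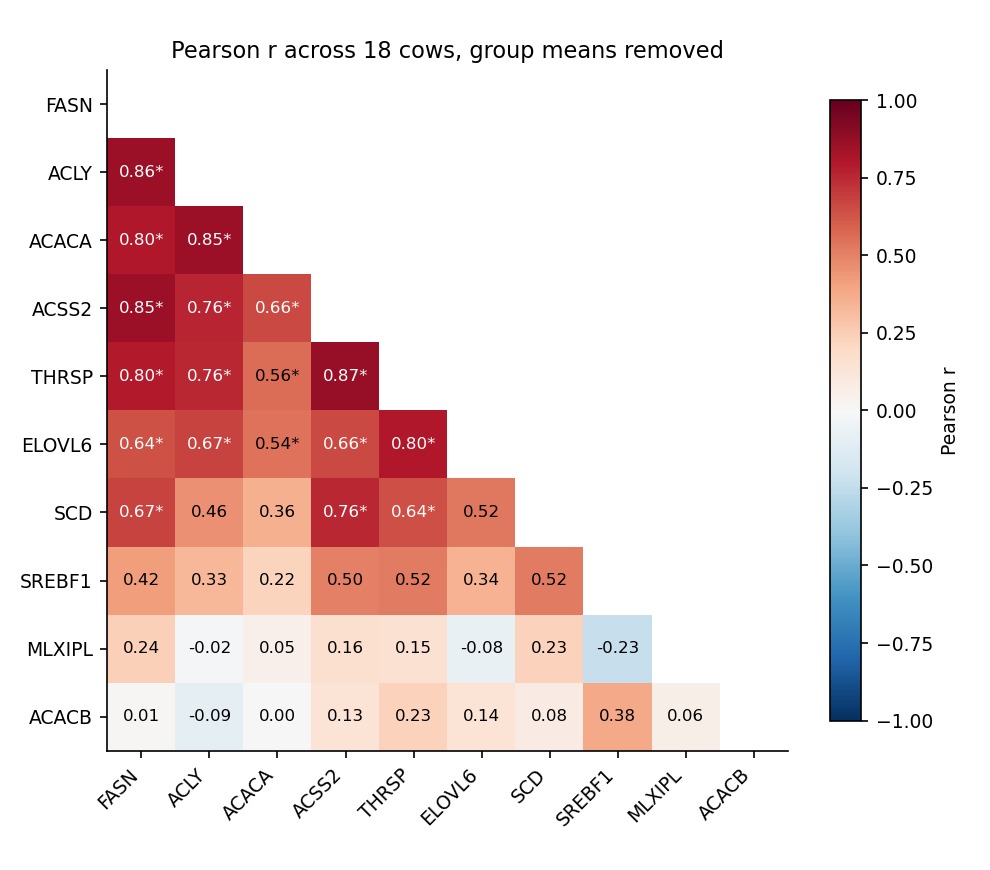
Pearson r of log2 expression over 18 cows with group means removed, for each of the 45 pairs of genes (colour and printed value); a star marks a permutation adjusted p under 0.05 over the 45 pairs. The 18 starred pairs lie among FASN, ACLY, ACACA, ACSS2, THRSP, ELOVL6 and SCD, and the rows of SREBF1, MLXIPL and ACACB hold none.

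Within groups, where only 9 cows enter, 9 of the 18 pairs passed in control and 5 of the 18 in niacin cows. In control cows 5 pairs of SREBF1 passed besides, with FASN, ACLY, ACSS2, SCD and THRSP. Control 20 was the highest of the control cows in 8 of the 10 genes, and niacin 3 the highest of the niacin cows in 5. Niacin 19 was above its group median in 10 of 10 genes, while control 36 and niacin 7 were above it in 0 and control 23 was below it in 9. Without the 2 cows farthest from the median of the first gene, r of the 18 pairs lay between 0.36 and 0.86. On leaving out 1 cow in turn, 15 (without control 20) to 20 pairs passed. Without niacin 3 the count was 18, but only 15 of these were among the 18 pairs found with all cows. With 1 cow left out, SREBF1 had 3 pairs past the threshold without niacin 3, 2 without niacin 15, and 1 each without niacin 8 or niacin 33. Without control 20, niacin 3 and niacin 19 together, which were picked after the values were seen, 2 pairs passed (ACSS2 with THRSP at 0.81, and FASN with ACSS2 at 0.75, n = 15), and the median r of the 18 pairs was 0.54 against 0.76 with all cows. Without these cows r of the 18 pairs ran from 0.08 (ACACA with ELOVL6) to 0.81. The r of ACACA was then 0.66 with ACLY, 0.41 with FASN, 0.25 with ACSS2 and 0.15 with THRSP.

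Correlations of this size were rare among all tested probe sets. Most of these had a smaller within-group SD than the lipogenesis genes, and the shares below were not matched for SD. Of the 8 other tested genes of the pathway, 4 (ACSS2, ACACA, ACLY and THRSP) had r of at least 0.7 with FASN, which 0.433% of all other tested probe sets reached. With THRSP it was 4 of 8 (ACSS2, ACLY, FASN and ELOVL6) against 0.318%, with ACLY 4 of 8 against 0.444%, and with ACSS2 4 of 8 against 0.488%. The count was lower with ACACA (2 of 8 against 0.203%), SCD (1 of 8 against 0.290%) and ELOVL6 (1 of 8 against 0.334%). With SREBF1 it was 0 of 8 against 0.258%, and with MLXIPL 0 of 8 against 1.00%. The median r with FASN over all tested probe sets was 0.0061.

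With the 6 tested enzymes and THRSP, r of SREBF1 lay between 0.62 and 0.90 in control cows and between -0.36 and 0.06 in niacin cows, but no difference between groups passed adjustment over the 45 pairs. With ACACB it was 0.38 in control and 0.37 in niacin cows. With FASN its r was 0.90 in control cows (n = 9, exact permutation p = 0.0011) and -0.16 in niacin cows (n = 9, exact permutation p = 0.685). On leaving out 1 cow it stayed between 0.83 and 0.92 in control and between -0.48 and 0.06 in niacin cows. With ACSS2 the values were 0.85 and 0.06, with SCD 0.81 and -0.06, and with THRSP 0.79 and -0.07. The difference between groups was tested after the values were seen, by the exact permutation of group labels on group-centred values. For FASN it gave an unadjusted p of 0.0114 (n = 9 each), but 0 of the 45 pairs passed after adjustment, and the adjusted p for FASN with SREBF1 was 0.282. At an unadjusted exact p under 0.05 there were 6 pairs. The SD of SREBF1 was 0.35 in control and 0.22 in niacin cows, and the part of this narrower range in the lower r was not tested.

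**Figure D4:**
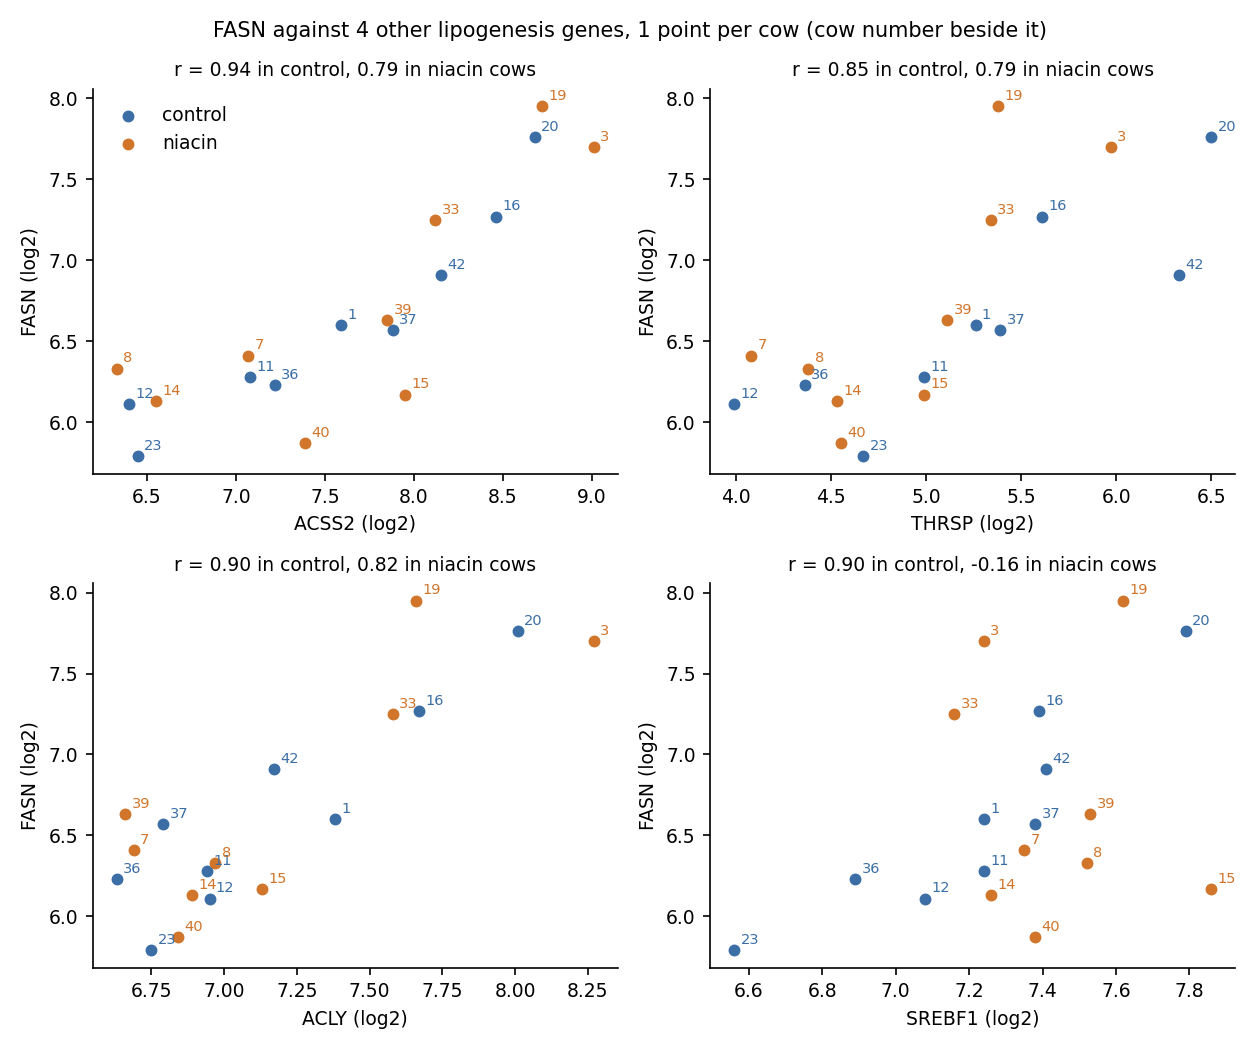
FASN (log2, y axes) against ACSS2, THRSP, ACLY and SREBF1 (log2, x axes), 1 point per cow with its number, control in blue and niacin in orange. With ACSS2, THRSP and ACLY r is between 0.79 and 0.94 in each group; with SREBF1 it is 0.90 in control and -0.16 in niacin cows, a difference with an exact permutation adjusted p of 0.282.

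Apart from the 10 members themselves, the genes most like them over 18 cows, with group means removed, came from several fields, and r is given as a description. For FASN the 5 highest non-members were SPAG5 (r = 0.90), a mitotic spindle gene, the histone methyltransferase gene NSD2 (0.87), the cell cycle gene GTSE1 (0.85), the retinol dehydrogenase gene RDH11 (0.85) and CIT (0.84), a kinase of cell division. SPAG5 ran from 4.50 to 5.52 and GTSE1 from 4.36 to 5.38, near the filter level. The 3 lowest named genes were C24H18orf21 (-0.79), TCEANC2 (-0.78) and SLC25A40 (-0.78). Among non-members THRSP was most like DHCR7 (0.84), a late enzyme of cholesterol synthesis, the mitochondrial citrate carrier gene SLC25A1 (0.83), CBS (0.81), SREBF2 (0.80) and RNF125 (0.80). Its lowest were CD36 (-0.81), DROSHA (-0.78) and LOC785630 (-0.76).

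For SCD the highest non-members were ICOSLG (0.84), the sterol isomerase gene EBP (0.83), the liver fatty acid-binding protein gene FABP1 (0.83), CARHSP1 (0.83) and TMPRSS6 (0.80), and the lowest ANKH (-0.88), CD36 (-0.82) and ODAD2 (-0.78). CD36, which encodes a fatty acid uptake protein, was thus among the 3 lowest for both THRSP and SCD, and its r with FASN was -0.77. It ran from 7.06 to 8.74 and differed by 0.0011 between groups. For SREBF1 the highest non-members were SLC30A10 (0.82), C1QL2 (0.82), RAB3A (0.80), BCL7A (0.80) and APC2 (0.78), with SETDB1 (-0.85), TSC1 (-0.83), a brake on the growth-control complex mTORC1, and PARG (-0.82) at the other end.

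Among other genes of the pathway, the supply of carbon and reducing power held 2 genes with r of at least 0.7 with FASN. Of 17 measured genes 16 were tested, with a median r of 0.10 with FASN. IDH2, a mitochondrial NADPH source, had r = 0.74 with FASN and SLC25A1 0.72, followed by PGD (0.43) of the pentose phosphate pathway. ME1, the malic enzyme of rodent lipogenesis, was dim at 3.35 to 5.46 and not tested. For niacin 0 of the 16 passed an adjusted p of 0.05 with limma, and 2 had an unadjusted p under 0.05 (7.74% of all tested probe sets did), both with values below 0. They were PKLR, the liver pyruvate kinase (-0.38 ± 0.16, SE; limma adjusted p = 0.595), and KHK, ketohexokinase (-0.22 ± 0.10; limma adjusted p = 0.595). PKLR is a known ChREBP target in rodents, and its r was 0.62 with MLXIPL and 0.32 with FASN. For KHK these were 0.71 and 0.05. An r of at least 0.7 with MLXIPL was reached by 1.00% of all other tested probe sets. In the same list PDHA1 (-0.75), IDH1 (-0.64) and PDHB (-0.62) had negative r with MLXIPL. A part of ChREBP in the lower PKLR and KHK values was not tested.

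Of the 25 regulators, SREBF2, the gene of the sterol-controlled SREBP-2, was the closest to FASN at r = 0.72, then INSIG1, which retains SREBP in the endoplasmic reticulum (0.43), and the insulin receptor gene INSR (-0.40). Their median r was 0.14. With niacin 0 of 25 passed an adjusted p of 0.05 by limma, and 2 of 25 had an unadjusted p under 0.05, a share near the 7.74% of all tested probe sets. Of these, PRKAA2, a catalytic subunit of the AMP-activated kinase that inhibits acetyl-CoA carboxylase, differed by -0.29 ± 0.09 (limma adjusted p = 0.475). STK11, the kinase that activates it, differed by 0.20 ± 0.07 (limma adjusted p = 0.516), and its r with SREBF1 was 0.69.

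The list for the use of new fatty acids had a median r of 0.28 with FASN over 18 tested genes of 21. It also holds FABP1, a binding protein gene (r = 0.45 with FASN), and TM7SF2, a sterol reductase gene (0.58). Whether its genes act on newly made fatty acids is not shown by these values. The desaturase gene FADS1 (0.74), the phosphatidate phosphatase gene LPIN2 (0.67) and the acyl-CoA synthetase gene ACSL3 (0.58) were closest. With niacin 0 of the 18 had an unadjusted limma p under 0.05, the smallest belonging to ACSL5 (-0.28 ± 0.16, limma adjusted p = 0.711) and ELOVL1 (-0.22 ± 0.13, limma adjusted p = 0.718). Of these 4 lists cholesterol synthesis had the highest median r with FASN, with r above 0 in 13 of 13 measured genes and a median of 0.58; the other lipogenesis genes had a median of 0.73. SQLE (0.81), DHCR7 (0.76) and MVD (0.76) were the highest. In the same 13 genes niacin minus control was below 0 in 13, with a median of -0.09 against 0.01 over all probe sets. None had an unadjusted limma p under 0.05, and the smallest were those of MSMO1 (-0.28 ± 0.17, limma adjusted p = 0.718) and IDI1 (-0.20 ± 0.12, limma adjusted p = 0.742).

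**Figure D5:**
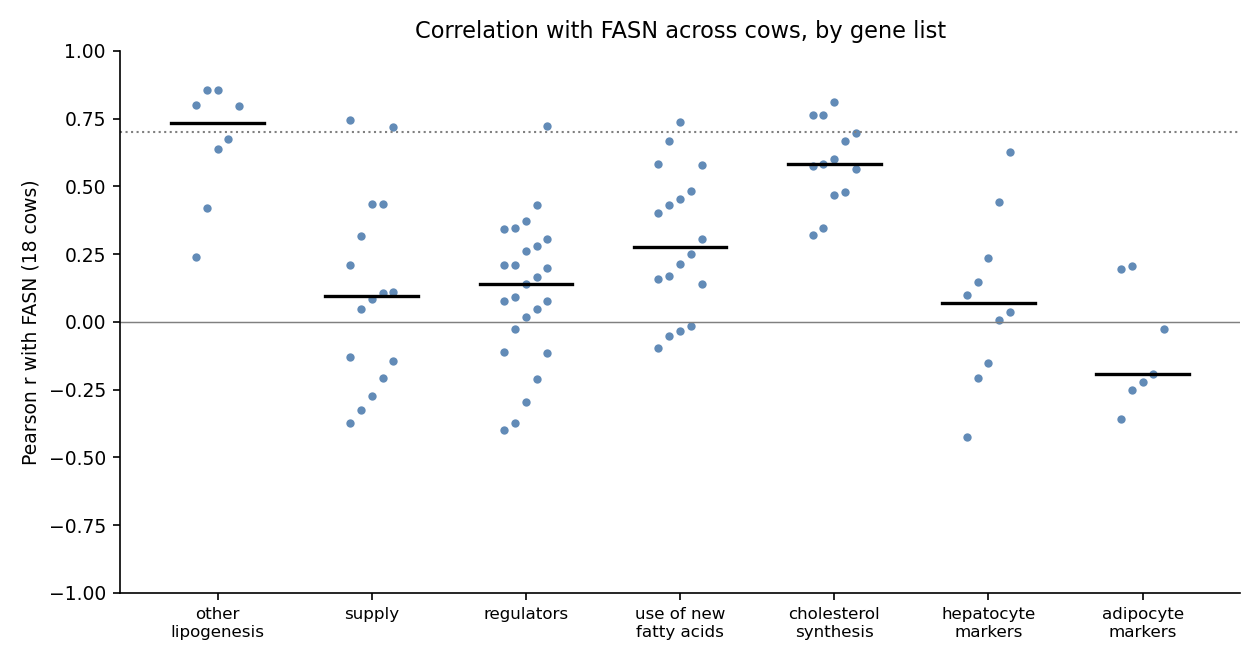
Pearson r with FASN over 18 cows, group means removed (y axis), for each tested gene of 7 lists (points), with the median of each list (bar) and r = 0.7 dotted. At or above 0.7 lie ACLY, ACSS2, ACACA and THRSP among the other lipogenesis genes, and IDH2 and SLC25A1 in supply. So do SREBF2 among regulators, FADS1 in the list for use of new fatty acids, and SQLE, DHCR7 and MVD in cholesterol synthesis.

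Markers of other cell types were set beside FASN as mean levels. The mean of the lymphocyte markers over 10 measured of 11 genes had r = 0.45 with FASN, that of 10 macrophage markers 0.24, of 10 hepatocyte markers 0.19 and of 10 adipocyte markers -0.20. For neutrophils it was -0.24, for bile duct cells -0.14, for stellate cells -0.09 and for endothelial cells -0.02. The lymphocyte mean ran from 5.42 to 5.79 in control and from 5.62 to 5.87 in niacin cows, the macrophage mean from 8.11 to 8.70 and from 8.22 to 9.07, and the adipocyte mean from 5.11 to 5.35 and from 5.11 to 5.53. In the niacin comparison 4 of 10 macrophage, 2 of 10 lymphocyte and 2 of 6 neutrophil markers were higher, and 2 of 10 hepatocyte and 1 of 7 tested adipocyte markers lower, at an unadjusted limma p under 0.05, which 7.74% of all tested probe sets had in either direction, and 0 after adjustment. The 4 macrophage markers were TYROBP and the related genes C1QA, C1QB and C1QC. Of the 10 macrophage markers 9 had values above 0, and MARCO was at -0.32 ± 0.34 (SE). The part of the cell type markers in the shared variation of the enzymes was not tested.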

How the data were processed

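The deposited log2 values were made by the authors with Affymetrix Expression Console and RMA, per the submitters' processing notes (no version is recorded in the labels); that they are log2 was read from the values, which run from 0.85 to 14.04. Of 22 cows, RNA of 11 per group was available and the 2 with the lowest integrity number per group were left out, per the labels' protocols. Each array is a separate cow by its number in the labels, and no batch is labelled. The number of arrays limits the precision.

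From the 24333 probe sets, those in the lowest share of 0.25 by mean were removed, and 18250 were fitted with limma 3.58.1 (R 4.3.3; lmFit, eBayes, no covariate), with Benjamini-Hochberg adjustment over all of them. Exact permutation tests and correlations were run in Python 3.11.15 with numpy 2.4.6. Scripts were checked on simulated data. The genes, lists and tests were chosen with earlier results of these data known.

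Named genes are the 10 members, the 5 highest and 3 lowest non-members by r for FASN, SREBF1, THRSP and SCD, in each pathway list the 3 with the largest absolute r with FASN and the 2 with the smallest p, and 7 fixed by name. The 688 probe sets with several symbols were not named.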

Additional observations from a re-analysis of the deposited data

Results flagged for a closer look

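ELOVL6 in niacin 3, at 8.60, stood apart from the other niacin cows, of which the next was at 7.89. It was 1 of 22 groups of 9 values checked for such a gap, where chance gives about 1 in 20.

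In 6 of the 45 pairs of genes the correlation differed between niacin and control cows at an unadjusted exact permutation p under 0.05, and in 0 after adjustment (lowest adjusted p = 0.282, n = 9 each). The r in niacin minus that in control cows was -1.06 for FASN with SREBF1, -0.98 for ELOVL6 with SREBF1, -0.86 for SREBF1 with THRSP and -0.36 for ACSS2 with SCD. It was 1.02 for FASN with MLXIPL and 0.83 for MLXIPL with THRSP. MLXIPL and FASN had r = -0.42 in control and 0.60 in niacin cows.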

How the results depend on the processing

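For the niacin comparison, 0 probe sets of the 10 genes passed an adjusted p of 0.05 under each alternative: a stricter filter (which also drops THRSP) or none, the adipocyte marker mean as a covariate, robust variances with an intensity trend, median centring or repeated quantile normalization of arrays, array weights, the exact permutation test, and each array left out. Over the probe sets of these 10 genes and all alternatives the adjusted p lay between 0.401 and 1.00. With array weights the sign turned for ACSS2 (-0.024) and SCD (-0.035 and -0.016 on its 2 probe sets). On leaving out 1 cow the differences ranged from -0.052 to 0.25 for FASN, -0.0014 to 0.18 for ACACA, -0.091 to 0.15 for ACLY, -0.048 to 0.29 for ACSS2, and -0.061 to 0.22 and -0.034 to 0.26 for SCD. The cause was not tested.

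Against 18 correlated pairs, the same 18 passed with uncentred values or array medians removed, 16 of them with Spearman's rho, and 19 pairs with the other SCD probe set. On leaving out 1 cow 15 to 20 pairs passed, and 15 of the 18 were kept without control 20 or without niacin 3. In control cows alone 14 passed, 9 of them among the 18 and 5 with SREBF1. There were 5 in niacin cows alone, where only 9 cows enter, and 2 without control 20, niacin 3 and niacin 19 together, an alternative chosen after seeing the data. Of 72 other pathway genes, 0 passed for niacin with or without the filter and 4 at an unadjusted p under 0.05, which 7.74% of all tested probe sets had. No paired analysis was possible because cow numbers are not shared between the groups.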

Other observations

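Some genes fixed by name belonged to no result above. The triacylglycerol genes GPAM and DGAT2 had r of 0.40 and 0.21 with FASN over 18 cows, and differed by 0.09 ± 0.13 and -0.15 ± 0.12 (SE) between niacin and control cows. PNPLA3, a lipase-like gene under SREBP-1 control in mice, was near the filter level at 4.16 to 5.05, with r = -0.03 with FASN and 0.31 with SREBF1. PPARG, the adipogenic receptor, ran from 4.09 to 5.24 with r = 0.16. The desaturase gene FADS2 had the widest range of the list for use of new fatty acids, from 6.76 to 12.1. Its r was 0.48 with FASN and 0.74 with SCD. FADS2 differed by -0.96 ± 0.62 (SE; limma adjusted p = 0.745) between niacin and control cows. Its SD was 1.00 in control and 1.89 in niacin cows. It is named after its values were seen.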
